A study of Macaca mulatta with 6 samples.

Results

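Genes of cyclic nucleotide and G protein signalling were followed in plasma RNA of 2 rhesus macaques, named A and B. The members were chosen by gene symbol: phosphodiesterases (PDE), adenylyl cyclases (ADCY), guanylyl cyclases (GUCY), G protein alpha, beta and gamma subunits (GNA, GNB, GNG), subunits of the cAMP-dependent kinase (PRKA), protein kinase C (PRKC) and regulators of G protein signalling (RGS). The set was drawn up with the summed counts of these data already known, PDE1B's among them, so the high count of PDE1B is a description and no test. The rule found 108 of the 35432 genes listed. Of these, 3 matched by letters only, namely PRKCSH, the beta subunit of glucosidase II, and RGS7BP and RGS9BP, which anchor RGS proteins at membranes.

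Plasma of each animal had been split on a gradient into a lipoprotein, an extracellular vesicle (EV) and a protein fraction, with 1 library per fraction and animal, treated with proteinase K, RNase and DNase. The labels gave no age or stress history for either animal. Gene counts were used for the EV library of each animal and for each animal's summed column, which adds up libraries that the authors did not name. The EV count exceeded the sum in 19 genes of A and 12 of B, none of them members, so the sums do not hold the EV counts exactly as listed. An EV count set against a sum is therefore a comparison of 2 columns, and an EV percent of a sum assumes that the sum holds the EV library. The 6 libraries held from 213481 to 634481 uniquely mapped reads. Gene counts came to 10397 for the EVs of A, 2842 for the EVs of B, and 62794 and 54534 for the sums of A and B. The sums equalled only 5.20% (A) and 4.71% (B) of the uniquely mapped reads of an animal's 3 libraries. The EV library held 52.6% of those reads in A and 18.4% in B. EV gene counts, by contrast, were 16.6% and 5.21% of the sums. The reason for these gaps was not tested. A count of 0 is compatible with up to 3 counts, or 0.0289% and 0.106% of the EV totals and 0.00478% and 0.00550% of the sums. Intervals are 95% Clopper-Pearson intervals unless named otherwise. Intervals and limits cover counting error only and are too narrow if counts hold PCR copies. Of the EV markers, CD9 had 2 counts in each EV library, while CD63, CD81, TSG101, PDCD6IP and FLOT1 had 0 in both.

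In this pathway a ligand-bound receptor makes a G protein alpha subunit exchange GDP for GTP and part from its beta-gamma partner. Alpha and beta-gamma subunits then set the activity of adenylyl cyclases, which make cAMP, and of phospholipase C, whose products activate protein kinase C. Guanylyl cyclases make cGMP in response to nitric oxide or peptides. Phosphodiesterases break both cyclic nucleotides down, and RGS proteins speed up GTP hydrolysis by the alpha subunit and so end the signal. In blood these genes act in platelets, whose activation cAMP and cGMP restrain, and in leukocytes. Many members, among them several RGS and PDE genes, are best known from neurons.

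PDE1B, which encodes a phosphodiesterase that calcium and calmodulin activate and that degrades both cAMP and cGMP, had nearly all counts of the set. Its summed count (ENSMMUG00000000111) was 586 in A and 419 in B, and its EV count was 0 in both animals. It was thus high in both sums and not detected in either EV library. In A it made up 90.3% of the summed counts of all members (87.8% to 92.5%) and in B 89.9% (86.8% to 92.5%). Within the phosphodiesterases alone it made up 99.7% in A (98.8% to 99.96%) and 99.8% in B (98.7% to 99.99%). Among all genes of the series it ranked 11 by count in A and 10 in B. The next member, RGS8, had 24 and 14 counts, so PDE1B had 24.4 and 29.9 times as many. These are counts that were not divided by gene length, so they do not compare transcript levels between genes.

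**Figure D1:**
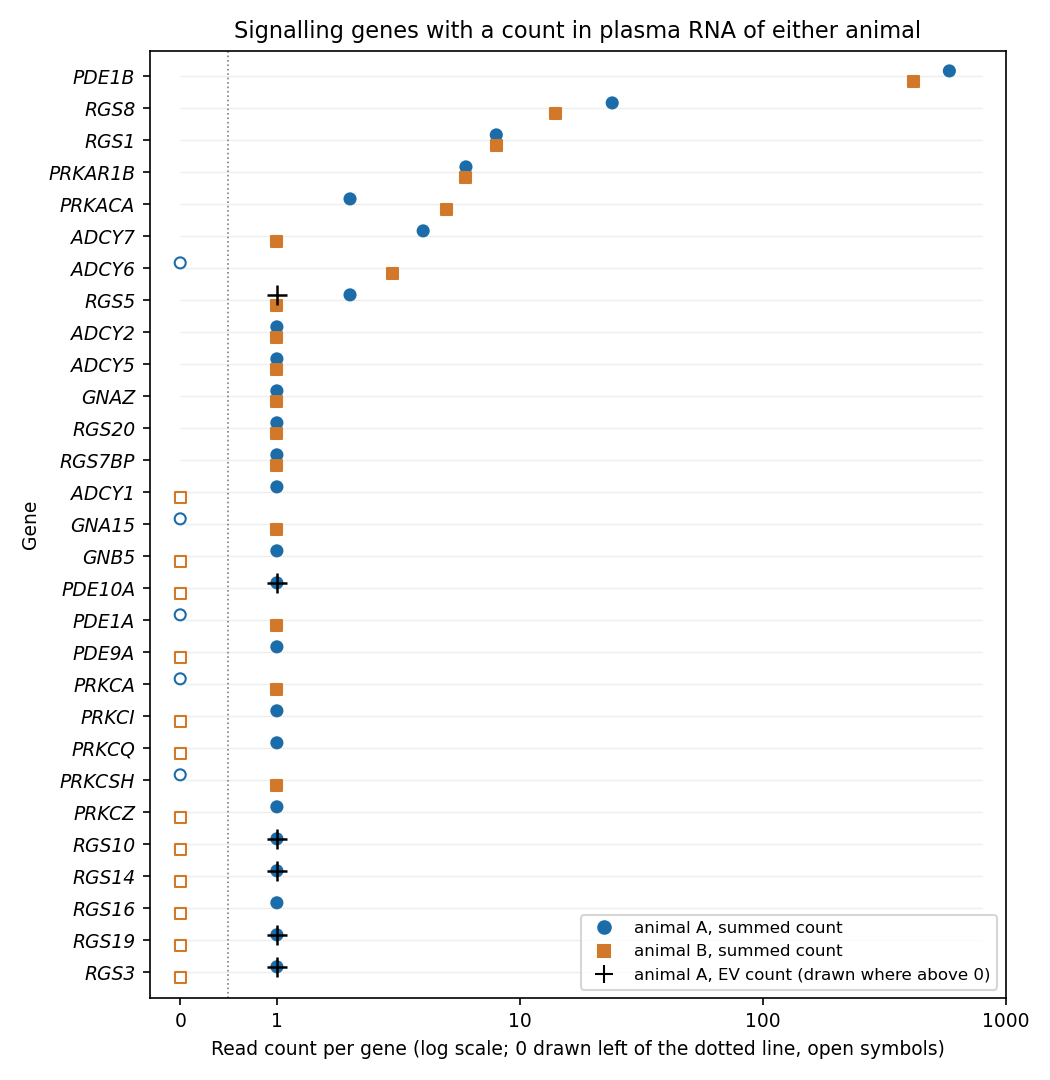
Counts (x axis, log scale, with 0 drawn apart) of the 29 members with a count in either summed column (y axis), as circles for animal A and squares for animal B, with plus signs for EV counts of A. PDE1B stands at 586 and 419, and no other member exceeds 24.

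The share of PDE1B in the sums is given without a comparison of the animals, as these counts were known when the set was drawn up. It was 0.933% of all summed counts for A (0.859% to 1.01%) and 0.768% for B (0.697% to 0.845%). The genes next to PDE1B in RefSeq's gene order for the macaque were near 0. PPP1R1A, a protein phosphatase inhibitor gene, had 1 summed count in each animal, and NCKAP1L and GTSF1 had 0 in both. LOC144332928, which lies beyond PPP1R1A, matched no gene here. Only 12.4% of all listed genes had a count in either sum, so low neighbours were the common case.

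The other phosphodiesterases were scarcely counted. PDE1A, a second calmodulin-dependent enzyme, had a summed count of 0 in A and 1 in B, and PDE1C, the third, had 0 in both. PDE9A, which is specific for cGMP, had 1 in A and 0 in B. PDE10A, which degrades both nucleotides and is best known from the striatum, had 1 in A, which was also its EV count there, and 0 in B. The other 19 of 23 phosphodiesterase genes had 0 in both sums. They included the cAMP-specific PDE4A, PDE4B, PDE4C and PDE4D, the platelet enzymes PDE3A and PDE5A, and the 6 listed PDE6 genes, most of which belong to photoreceptors. PDE12, also at 0, acts on oligoadenylates rather than on cyclic nucleotides. With PDE1B included, 3 of 23 phosphodiesterase genes were detected in A (interval 2.78% to 33.6%) and 2 of 23 in B (1.07% to 28.04%). These intervals held the shares of genes that RefSeq lists as protein coding, 18.8% in A and 14.9% in B. Only 12.4% of all listed genes had a count in either sum. The zeros are therefore not read as a trait of this family.

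At 1 count or more, 24 of 108 members were detected in the sum of A (22.2%, 14.8% to 31.2%) and 17 in that of B (15.7%, 9.45% to 24.0%). The background was 10.3% of all listed genes in A and 8.15% in B. Among the 24186 genes with a symbol it was 13.3% and 10.5%, and among those that RefSeq lists as protein coding 18.8% and 14.9%, which lie within the members' intervals. The share of members detected was therefore near that of other protein-coding genes. Most detected members rested on 1 count, 17 of 24 in A and 11 of 17 in B. Their median count was 1 in each sum, as it was over all detected genes. At 2 counts or more, 7 members remained in A (6.48%, against 4.21% of all listed genes) and 6 in B (5.56% against 3.2%). At 5 or more there were 4 in A (3.70% against 1.55%) and 5 in B (4.63% against 1.16%). The share of protein-coding genes was not computed at these higher minimum counts, so these differences are not read as an excess.

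Of the enzymes that make the second messengers, some adenylyl cyclases and no guanylyl cyclase had a count. Among the 10 adenylyl cyclases 4 had a count in each sum (40.0%, 12.2% to 73.8%). That interval held the 18.8% and 14.9% of protein-coding genes in A and B. ADCY7, known from blood cells, had 4 summed counts in A and 1 in B. ADCY6, a calcium-inhibited cyclase, had 0 and 3. ADCY2 and ADCY5, both best known from the nervous system, had 1 in each sum, and the calmodulin-stimulated ADCY1 had 1 in A and 0 in B. None of these 5 had an EV count. The 6 guanylyl cyclase genes had 0 in both sums and both EV libraries. They comprise the nitric oxide receptor subunits GUCY1A1, GUCY1A2 and GUCY1B1 and the membrane cyclases GUCY2C, GUCY2D and GUCY2F. With 0 of 6 detected, the interval for the detected share reached 45.9%. It held the 18.8% and 14.9% of protein-coding genes, so these zeros are not read as a trait of guanylyl cyclases. The difference between these families was not tested.

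G protein subunits were nearly without counts. Of 16 alpha subunit genes, GNAZ had a summed count of 1 in each animal and GNA15 had 0 in A and 1 in B. GNAZ encodes a member of the inhibitory class that pertussis toxin does not modify, and GNA15 one of the class that drives phospholipase C in blood cells. The other 14 had 0, among them the stimulatory GNAS and the inhibitory GNAI1, GNAI2 and GNAI3. The interval for the share of alpha subunit genes detected was 0.158% to 30.2% in A and 1.55% to 38.3% in B. These intervals held the 18.8% and 14.9% of protein-coding genes, so the zeros are not read as a trait of alpha subunit genes. Of 5 beta subunit genes, GNB5, whose product pairs with RGS proteins, had 1 in A and 0 in B. The 8 gamma subunit genes, GNG11 among them, had 0 in both. The interval for beta subunit genes was 0.505% to 71.6% in A and reached 52.2% in B. For gamma subunit genes it reached 36.9% in each sum. These intervals too held the protein-coding shares, so the zeros are not read as a trait of beta or gamma subunit genes. No G protein subunit gene had an EV count.

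Among the kinases, the cAMP-dependent kinase had the most counts. PRKAR1B, a regulatory subunit best known from brain, had a summed count of 6 in each animal, and PRKACA, the main catalytic subunit, had 2 in A and 5 in B. The other 5 of its 7 genes, including PRKAR1A and PRKACB, had 0. The share detected was 28.6% in each sum (3.67% to 71.0%), an interval that held the 18.8% and 14.9% of protein-coding genes in A and B. In protein kinase C, the atypical PRKCI and PRKCZ and the T cell isoform PRKCQ each had 1 count in A and 0 in B. The conventional isoform PRKCA and the letter match PRKCSH each had 0 in A and 1 in B. The other 5 of these 10 genes had 0 in both sums, and no kinase gene had an EV count.

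The RGS family had the most detected members, with 10 of 23 in the sum of A (43.5%, 23.2% to 65.5%) and 5 of 23 in that of B (21.7%, 7.46% to 43.7%). Beside these stand 10.3% and 8.15% of all listed genes, and 18.8% and 14.9% of protein-coding ones. In B the share of adenylyl cyclases detected was 40.0%, and the difference between these families was not tested. RGS8, best known from cerebellar Purkinje cells, had 24 and 14 counts. RGS1, which dampens chemokine signals in lymphocytes, had 8 in each sum. RGS5, a pericyte gene, had 2 and 1. RGS20, which acts on the GNAZ product, and the letter match RGS7BP had 1 in each sum. RGS3, RGS10, RGS14, RGS16 and RGS19 each had 1 in A and 0 in B. For all of these but RGS16 that count was also the EV count of A. The other 13, including the platelet gene RGS18, had 0 in both. The 7 platelet markers, from PPBP to TREML1, also had 0 in both sums and both EV libraries. At 2 counts or more, the family had 3 detected members in A and 2 in B. The interval of the family lay above the protein-coding share in A and held it in B. The share in A rested largely on single counts, part of them EV counts, and is not read as a trait of the family.

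**Figure D2:**
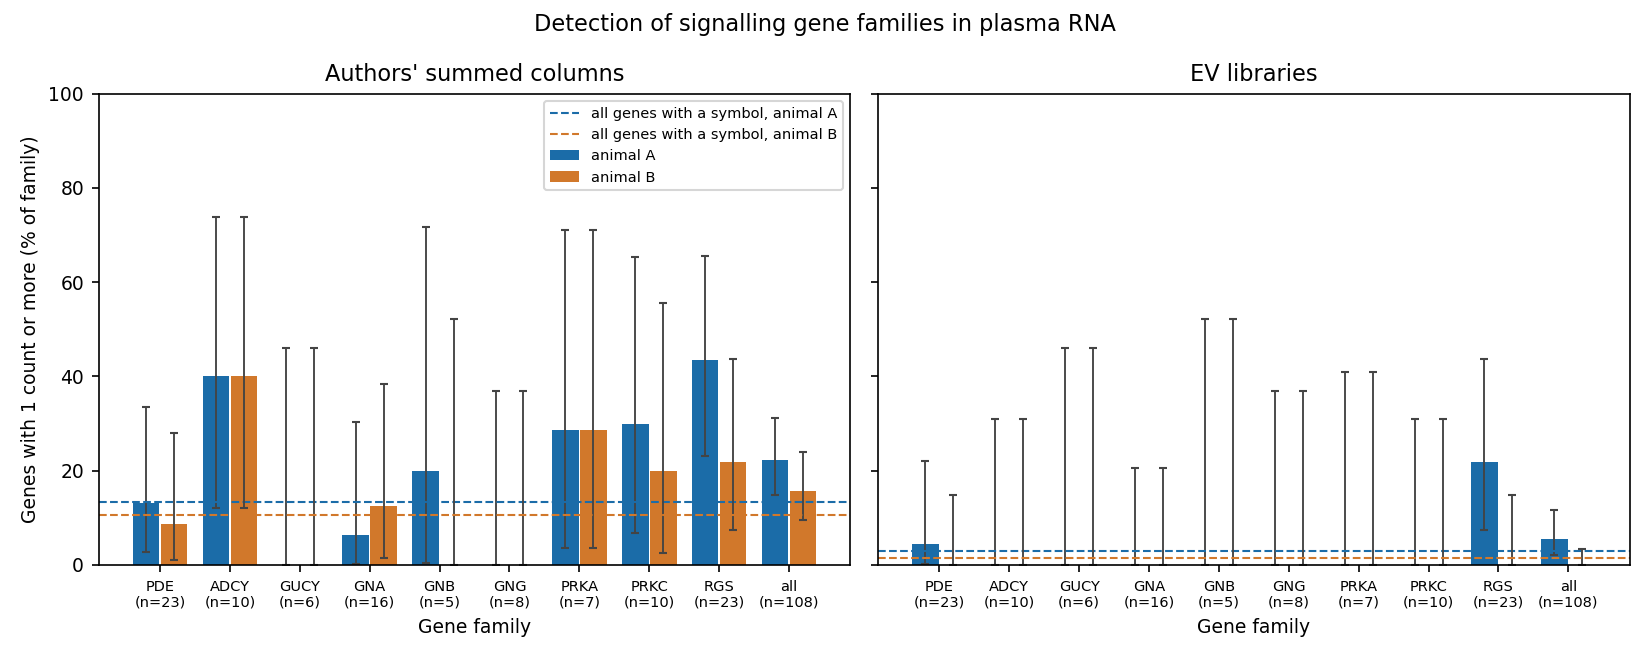
Percent of each family with 1 count or more (y axis) in the summed columns (left) and the EV libraries (right) for animals A and B, with exact 95% intervals as error bars and dashed lines at the percent of all genes with a symbol. In the sum of A the RGS bar stands at 43.5%, the guanylyl cyclase and gamma subunit bars are at 0, and the intervals of these small families are wide. The higher shares of protein-coding genes in the sums, 18.8% in A and 14.9% in B, are not drawn.

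A summed count in either animal was found for 29 members (26.9%, against 12.4% of all listed genes) and in both for 12 (11.1% against 6.05%). The share of protein-coding genes, which was higher than that of all listed genes in each sum, was not computed here. These differences are therefore not read as an excess. The 12 were 50.0% of those detected in A and 70.6% of those in B. The 12 members counted only in A had 1 count each, as had 4 of the 5 counted only in B. With the EV counts taken off, 24 members kept a count in at least 1 sum, and 8 of these had the same value in both animals (33.3%). The background was 31.1% of 3898 genes. The equal members were RGS1 at 8, PRKAR1B at 6 and 6 others at 1. The libraries behind the sums were not stated and the sums may share counts, so a like value in both columns is not a second observation.

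In the EV library of A, 6 members had a count, each of 1: RGS3, RGS5, RGS10, RGS14, RGS19 and PDE10A. No member had an EV count in B. The 6 were 5.56% of the members (2.07% to 11.7%), against a background of 2.25% of all listed genes and 2.96% of those with a symbol. Both lie within the interval, and the share of protein-coding genes was not computed for the EV libraries. For B the background was 1.06% of all listed genes and 1.4% of those with a symbol, and 0 of 108 members allowed a share of up to 3.36% at the upper end of its interval. RGS genes were 5 of the 6, each resting on 1 count, and 23 of the 108 members. For 5 of the 6 the EV count equalled the sum of A, and for RGS5 the sum was 2. Members with 5 or more summed counts, namely PDE1B, RGS8, RGS1, PRKAR1B and PRKACA, had 0 EV counts. The share of all genes with such sums that had 0 EV counts was not computed, so these zeros are not read as a trait of members.

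Together the members made up 0.0577% of EV counts for A (0.0212% to 0.126%). Against the 0 of B the ratio of shares, A over B, had a lower bound of 0.322 by the exact conditional binomial interval, so no difference between the EV libraries was detectable. When the EV counts of A were thinned to the total of B, 2 members remained detected.

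EV counts were 0.924% of the members' summed counts in A (6 of 649, 0.340% to 2.001%) and 0 of 466 in B, with an interval up to 0.788%. Over all genes they were 16.6% and 5.21%. In A this low share rested on PDE1B. Without that gene the EV share was 9.52% in A (6 of 63, 3.58% to 19.6%), an interval that held the value of all genes. In B the share was 0 of 47, with an interval up to 7.55%. For PDE1B alone 0 EV counts, taken as up to 3 counts, allow up to 0.512% of its sum in A and 0.716% in B. The overall EV share would have given 97.0 counts in A and 21.8 in B.

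A high sum without EV counts was common. Of the 74 genes with 100 or more counts over both sums, 32 had 0 counts in both EV libraries (43.2%). By summed count PDE1B was the fourth of these, after MMP1, ABHD17A and CPZ and before RPAP1. The EV share of a gene in this group ran from 0% to 100% in A, with a median of 1.48%, and from 0% to 78.1% in B, with a median of 0%. PDE1B thus lay with a large group of genes at 0 and not apart from them.

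**Figure D3:**
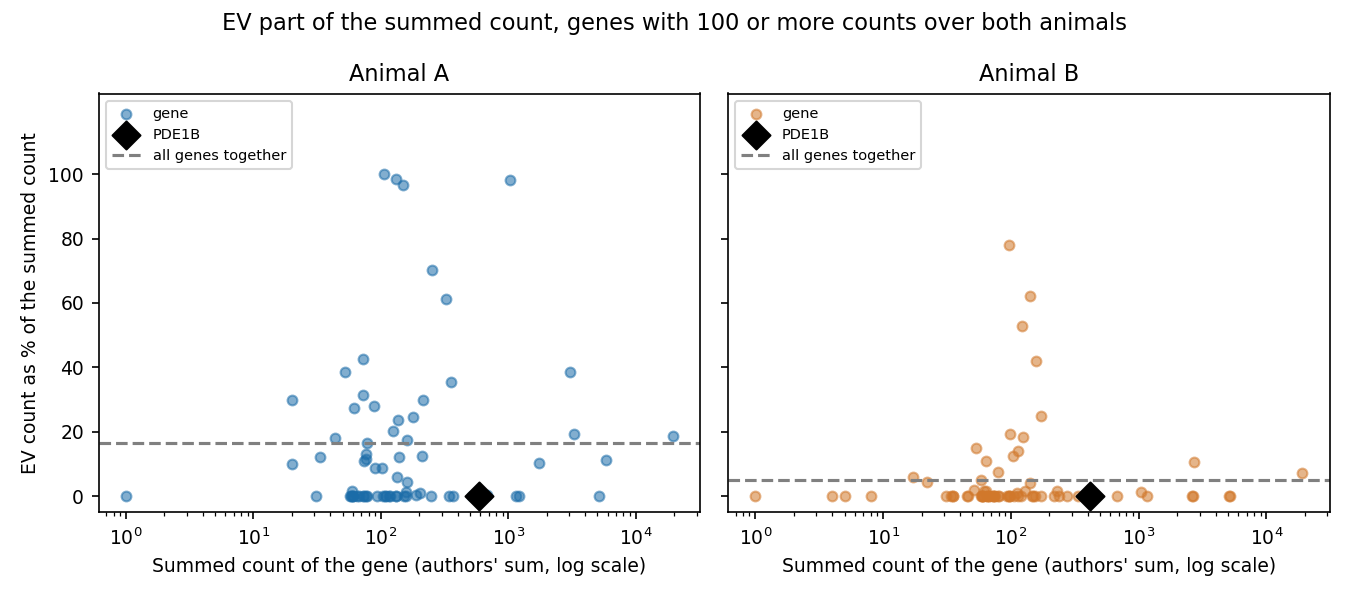
EV count as a percent of the summed count (y axis) against the summed count (x axis, log scale) in each animal, with 1 point per gene among the 74 genes with 100 or more counts over both sums, of which 72 had a sum above 0 in B. PDE1B (diamond) is among 32 genes at 0 in A and 44 at 0 in B, below the dashed lines at 16.6% and 5.21% for all genes together.

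Partners of the members outside the families were counted as well. Of 74 such genes with a matching symbol, 19 had a summed count in A (25.7%) and 15 in B (20.3%), against 10.3% and 8.15% of all listed genes and 18.8% and 14.9% of protein-coding ones. An EV count was found for 4 in A (5.41% against 2.25% of all listed genes) and 2 in B (2.70% against 1.06%), without a protein-coding share to set beside them. Among kinase-anchoring proteins, which hold the cAMP-dependent kinase at its sites, 4 of 14 were detected in A and 3 in B. AKAP13 led with summed counts of 12 in A and 16 in B and EV counts of 2 and 0. GRK6, a kinase that desensitises receptors, had 12 and 10 among 10 desensitisation genes, of which 3 and 2 were detected. GPSM1, which binds inhibitory alpha subunits, had 9 and 7 and was the single detected gene of 6 chaperone and GoLoco genes.

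Further along the pathway, phospholipase C beta and its calcium channels had 3 of 7 genes detected in A and 4 in B. PLCB1 had summed counts of 4 in A and 7 in B and EV counts of 1 and 0, and ITPR3, an endoplasmic calcium channel gene, had 2 and 7. Of 12 kinase inhibitor and CREB genes, 3 were detected in A and 2 in B. CREBBP, the coactivator that binds phosphorylated CREB, had 16 in A and 0 in B. CRTC1, another CREB coactivator, had summed counts of 8 and 3 and EV counts of 2 and 0. Of 16 other cAMP and cGMP effectors, 3 and 2 were detected. Of the 3 natriuretic peptide receptors NPR1, itself a guanylyl cyclase, had 1 in A and 0 in B.

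Markers of cells in which members act had few counts, and the endothelial list had the most, largely from 1 gene. The 6 lymphocyte markers had 1 summed count in A, from CD79A, and the 6 neutrophil and monocyte markers 2 in A and 1 in B, from CD14. The 5 neuron markers had 3 and 1, from RBFOX3, and SNAP25, SYT1, MAP2 and STMN2 had 0. The 6 hepatocyte markers and the 4 matched erythroid markers had 0 in both sums. Of the 5 endothelial markers 4 were detected in A and 3 in B, with 16 and 10 counts. NOS3 had 9 and 8 of these and VWF 5 and 1. CDH5 had 1 and 0, PECAM1 had 1 in each sum, and KDR had 0 in both. The list is therefore not read as an endothelial signal. Which cells the counts of RGS8, RGS1 and PDE1B came from was not tested.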

How the data were processed

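Per the labels' protocols, plasma RNA was purified with a Norgen kit, and libraries were built with the QIAseq UPXome kit. Per the submitters' processing notes, STAR was the aligner; its version, the genome build, the counting step and any use of molecular identifiers are not given in the sources used here. The authors deposited raw counts per Ensembl gene for the EV libraries and summed counts per animal, and the uniquely mapped percent of each library, from which uniquely mapped reads were computed. Which libraries were summed was not stated, so the sums are the authors' values with no SD. Counts per gene of the other 2 fractions alone were not analysed here.

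Gene identifiers were turned into symbols with the supplied table, and the order of genes was read from RefSeq's annotation of the T2T-MMU8v2.0 assembly. The symbols PDE2A, PDE8B, PDE4DIP, GNG8, GNG10 and GNG14, which RefSeq lists for the macaque, matched no gene in that table and were not analysed here. Genes without a row in the EV table, 79 of the 108 members among them, were taken as 0.

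Shares have 95% Clopper-Pearson intervals and the ratio of EV shares an exact conditional binomial interval (scipy 1.17.1). No p-value was computed, since there was 1 library per animal and fraction and genes are not replicates. The interval code was tested on simulated data. Named genes were those with an EV count, with 5 or more summed counts, the 2 leading genes per family, and the PDE1 genes, which left room for all 29 members with a summed count. Members named at 0 and the partners and neighbours named were chosen after their values were seen. The members, lists and rules were chosen with earlier results of these data known. Some genes of the partner and marker lists are not reported here. Alternatives covered the minimum count, thinning, the EV count, the background and single genes.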

Additional observations from a re-analysis of the deposited data

How the results depend on the processing

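Of 52 alternative values, 27 stayed close to the reported one: within 1.5 times for a count of genes, and within the reported value's interval for a percent, or on the same side of 1 for the lower bound of the EV ratio. Some of the 27 could not have moved. These were families already at 0, values that rest on the EV counts of members in B, which were all 0, and the removal of members whose EV count exceeded the sum, as none did. The 27 are therefore not a measure of stability. At 2 counts the sums held 7 detected members in A and 6 in B, and at 5 counts 4 and 5. By family, 2 counts left 1 phosphodiesterase and 1 adenylyl cyclase in each sum, 0 alpha subunit genes and 0 protein kinase C genes in each sum, 0 beta subunit genes in A, and 3 RGS genes in A and 2 in B. Partner genes fell to 11 in A and 9 in B. At 2 counts 0 members were detected in the EV library of A. At 1 count or more there were 6, and 2 after a single random thinning of that library to the total of B. The background for the sums was 13.3% in A and 10.5% in B among genes with a symbol, and 18.8% and 14.9% among protein-coding symbols, an alternative chosen after seeing the data. The EV share of the members' sums in A was 9.52% without PDE1B. Members with a count in either sum numbered 29, and from 17 to 24 with 1 animal left out. No paired analysis was possible because gene counts were at hand for the EV fraction alone, and no groups of samples were compared. The planned comparison of protein lengths was not run, as no protein table was used here. Depth limits what can be read from single counts, above all in the EV library of B, where 0 counts allow 0.106% of the total.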

Other observations

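The neighbours looked up in RefSeq's gene order had lower counts than RGS1, RGS8 and PRKAR1B. Only 12.4% of all listed genes had a count in either sum, so a neighbour at 0 was the common case. RGS1 had 8 summed counts in each animal, whereas RGS18, RGS21, RGS13 and RGS2, which lie beside it and belong to the same family, had 0 in both sums and both EV libraries. RGS8 and RGS16 are also neighbours, with 24 and 14 counts for RGS8 and with 1 and 0 for RGS16. Beside PRKAR1B, with 6 counts in each sum, DNAAF5 had 1 in each, SUN1 had 1 in A and 4 in B, and PDGFA had 0. These genes were looked up after the counts of the members were seen.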
